A study of Mus musculus with 6 samples.

Results

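The interzone of the Tgfbr2Prx1KO mutant was compared with the interzone of its control, 1 array against 1 array, chosen by the sample titles. The interzone is the strip of cells that separates neighbouring skeletal elements of the embryo and later forms the joint. These 2 arrays are 2 of the 6 in the series, and both lay on the same slide. Tgfbr2Prx1KO is by convention a deletion of Tgfbr2, the TGF-beta type II receptor gene, in limb mesenchyme through a recombinase driven by Prx1. The mutant group was Tgfbr2Prx1KO and the control group wild type, both C57BL/6 at E14.5, and 2 mutant and 2 control littermate embryos were used, per the labels. Tissue of the autopod, the future hand or foot, was frozen and cells were taken by laser capture, and the RNA was amplified before labelling. The number of cells and the animals used for each array, whether each array held 1 embryo or a pool, and which part of the gene was deleted are not given in the sources used here. The description attached to the mutant sample names irradiated human blood, while its title, tissue, genotype and organism fields name mouse limb, so groups were taken from titles.

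A level is the log2 processed signal relative to the array's 75th percentile, so that 0 is that percentile, and levels of different genes were not set against each other. Of 19497 named genes on the array, 16675 were well above background on both interzone arrays. Another 332 were detected in the mutant only, 1238 in the control only and 1252 on neither. The 2 arrays differed in detection, with 77.3% of spots well above background on the mutant array and 83.1% on the control array. The lowest signal called well above background was 20.4 on the mutant array and 12.4 on the control array. The part of this in the detection counts and in falls to dim mutant levels was not tested. Among the 16675, 17.5% were at least 2-fold higher and 23.1% at least 2-fold lower on the mutant array (2921 and 3848 genes). At 4-fold the shares were 7.86% and 10.4%. The median difference of all genes was -0.13 (SD 1.66). With 1 array per group there is no replicate check and no test, and every count of a gene list below is a description to be read beside these shares.

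Spots and probes show only the spread within an array and between probes of a gene. Variation between embryos, laser captures and RNA amplifications cannot be judged with 1 array per group. Probes printed 5 or more times on an array had a median spot SD of 0.07 on the mutant array and 0.10 on the control array (log2), so spot noise was small beside most differences named. Different probes of 1 gene were far less alike. Among 6389 genes with at least 2 measured probes, 49.5% had all their probes on the same side of 0, and the other probes of a gene went the way of its brightest probe in 56.5% of cases. That share was 62.95% for genes whose brightest probe differed at least 4-fold. For this reason the range over a gene's probes is given for the genes that matter, and a gene with 1 probe has no such check. The spread also depended on brightness, with 10.1% of genes higher and 11.8% lower among the brightest 3335 genes, against 20.9% and 31.5% among the 3335 genes with mean levels from -2.997 to -1.37. Folds against a dim signal also depended on background correction. Zfp750, described below, was 195-fold higher here and 52.1-fold higher with normexp correction. Falls to a dim mutant signal could shrink more. Cilp, also described below, was 102-fold lower here and 6.15-fold lower with normexp. Folds given below as at least a value, for genes detected on 1 interzone array, were not rerun with normexp. They are bounds under the main background correction only.

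Tgfbr2, the targeted gene, had levels of 2.22 on the mutant array and 2.42 on the control array at its brightest probe (1.15-fold lower), and a second probe was 1.91-fold higher. A probe outside the deleted part checks nothing, and that part is not known here. Gdf5, a growth factor gene and the marker of interzone cells, was at 2.08 in the mutant and 4.33 in the control (4.74-fold lower). Its signal relative to the 75th percentile was 4.24 in mutant and 20.1 in control interzone, 1.16 in mutant and 4.50 in control growth plate, and 5.17 in mutant and 2.29 in control interdigital tissue. The control interzone array had the highest of the 6 signals, while the mutant interzone array lay below the mutant interdigital and control growth plate arrays, so the marker does not set the mutant interzone array apart from the other tissues.

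Sex-linked genes separated mutant from control arrays in all 3 tissues. Xist, the RNA that coats the inactive X chromosome in female cells, was at -5.56 on the mutant interzone array and 3.02 on the control interzone array (382-fold lower, and 27.3-fold lower with normexp correction). It lay between -6.67 and -5.56 on the 3 mutant arrays and between 3.02 and 4.14 on the 3 control arrays, so the groups did not overlap. The Y-linked genes Uty, Eif2s3y and Kdm5d were well above background on every mutant array and on no control array, and in the interzone the lower bounds of their folds were at least 132-fold, 42.9-fold and 38.1-fold higher. Ddx3y, a Y-linked helicase gene, was 27.8-fold higher. Kdm6a and Kdm5c, X-linked demethylase genes that escape X inactivation in mouse, were 5.71-fold and 5.57-fold lower (1.20-fold for Kdm6a with normexp), while the escape genes Eif2s3x and Ddx3x were 1.40-fold lower and 4.70-fold higher (-0.91 for Ddx3x as the log2 mean of its probes). Over 551 X-linked genes, 17.1% were higher and 27.2% lower, against 17.5% and 22.9% of 16114 autosomal genes. The labels give no sex, and genotype and these sex-linked differences cannot be told apart in any result below.

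**Figure D1:**
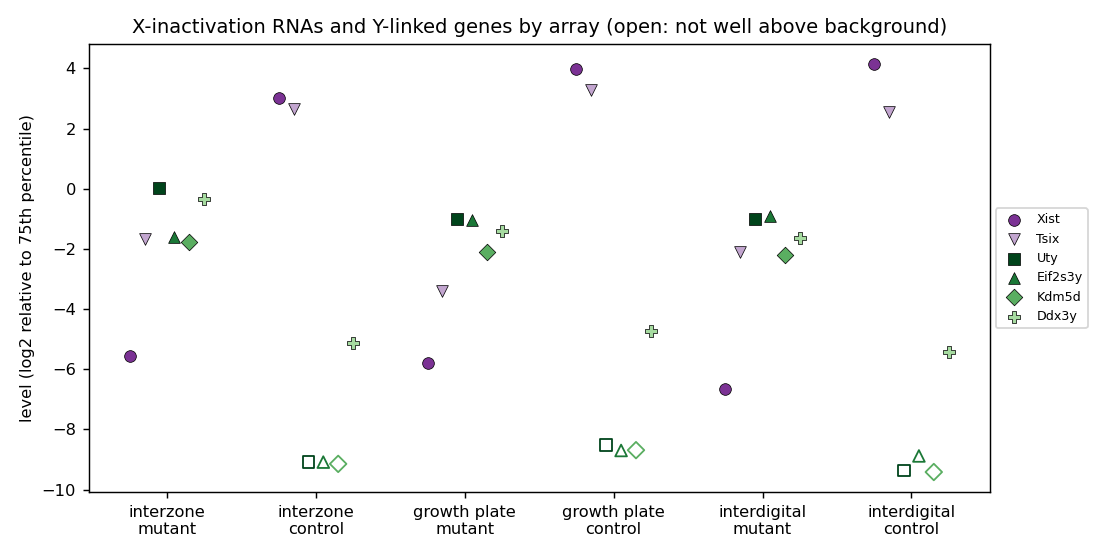
Levels (log2 relative to each array's 75th percentile) of 2 X-inactivation RNAs and 4 Y-linked genes on the 6 arrays, with open symbols for probes not well above background. Xist is between -6.67 and -5.56 on the mutant arrays and between 3.02 and 4.14 on the control arrays, and Uty is at 0.03 on the mutant interzone array.

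Markers of other cell types moved with the comparison, and their part in every list below was not tested beyond the values given. Of 14 epidermis markers, 12 were higher and 0 lower, and their summed signal relative to the 75th percentile was 235 in the mutant and 27.2 in the control interzone. Sums were taken over all markers on the array, and counts over those measured on both. They were 65.6 and 21.9 for 20 skeletal muscle markers (of 19 measured, 12 higher and 2 lower). For 17 macrophage markers they were 21.7 and 7.57 (of 16 measured, 10 higher and 2 lower). For 14 nerve and Schwann cell markers they were 33.8 and 14.9 (8 higher, 1 lower). Endothelium markers summed to 18.1 and 20.2, with 7 of 15 higher and 3 lower, and erythroid markers to 125 and 186, with 0 of 10 higher and 4 lower. One skeletal muscle marker was not well above background on either array, and 1 macrophage marker was not on the control array. In material of mixed cells, fewer cells of a type and less RNA per cell cannot be told apart.

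Cells make cholesterol from acetyl-CoA through mevalonate, squalene and lanosterol. When sterols are scarce, the transcription factor SREBP2 (the product of Srebf2) turns on most genes of this route, commonly with the factor NF-Y, which binds the letters CCAAT. In the embryo cholesterol also modifies hedgehog ligands, and growing skin makes large amounts for its barrier.

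Genes of sterol synthesis were higher on the mutant interzone array. All 24 genes of the list were measured, and 17 were at least 2-fold higher and 0 lower on the mutant array. These counts moved with the processing, from 10 to 19 higher and from 0 to 2 lower over the settings tried. One of those settings kept only the 16 genes with a mean level at or above 0. The list median was 1.38, which is 1.51 above the median of all genes, and it stayed above that median, by 0.95 to 1.51, in all 8 other settings tried. Among these settings, the deposited table and the percentile over probes detected on all arrays only shift each array by a constant. Those settings cannot change the distance of a list median from that of all genes, here or in the lists below. Fatty acid synthesis and desaturation (4 of 18 higher, 4 lower, median -0.18) and sphingolipid enzymes (5 of 28 higher, 7 lower, median -0.07) had medians near that of all genes.

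The promoter sequences below show the letters these genes share, with matches on either strand in capitals. CCAAT (or ATTGG, the same site read on the other strand) was sought in the 250 bases before the start of each gene. Of the 24 cholesterol genes, 17 had an entry in the RefSeq promoter table, and 16 of the 17 held CCAAT (94.1%). It was in 37.5% of all 27025 genes of that table and in 39.5% of the 13224 measured genes with an entry. It was also in 28 of 38 mitosis genes (73.7%), a list described below as lower on the mutant array. A link between the motif and the differences was not tested. The sterol response element TCACNCCAC was in 1.22% of all genes and in 1 of the 17, Hmgcs1. No 2 capital runs overlap in these windows, which are from the build GRCm38.p6. Hmgcs1 is shown because it holds both motifs, and the other 3 because they had the largest differences among cholesterol genes with CCAAT in the window. A match is a description of the letters and not a bound site.
Hmgcs1, chr13:119690165-119690232, plus strand: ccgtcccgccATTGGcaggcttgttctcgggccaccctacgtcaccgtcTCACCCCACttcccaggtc
Msmo1, chr8:64733619-64733684, minus strand: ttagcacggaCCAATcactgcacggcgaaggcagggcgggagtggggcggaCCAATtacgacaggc
Idi1, chr13:8885551-8885605, plus strand: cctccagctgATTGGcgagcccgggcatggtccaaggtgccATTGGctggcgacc
Nsdhl, chrX:72918491-72918515, plus strand: gactagcctcATTGGgcaaaatcat

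From acetyl-CoA to squalene, 5 of 9 genes were higher. Hmgcs1, which makes HMG-CoA, was at 2.89 in the mutant and 2.07 in the control interzone (1.77-fold higher, with probes from -0.22 to 1.55). Mvk, the mevalonate kinase gene, was 2.59-fold higher at 0.97 against -0.41, and Mvd, the next decarboxylase, 2.51-fold higher. Pmvk, the kinase between them, was at 0.66 and 1.09, and both its probes were lower (-0.43 and -2.08). Idi1, the isomerase of the 5-carbon units, was 7.90-fold higher, but its other probe went the other way by -1.35. Fdft1, which makes squalene, was 3.26-fold higher at 2.73 against 1.03, with both probes above 0. The early part of the route was thus uneven from gene to gene.

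From squalene to cholesterol, 10 of 11 genes were higher, 6 of them at least 4-fold, with a median of 2.03. Sqle, squalene epoxidase, was at 3.07 in the mutant and 0.27 in the control interzone (6.96-fold higher, 1 probe). On the other arrays Sqle was at 1.89 in mutant and 2.80 in control growth plate, and at 1.15 in mutant and 0.20 in control interdigital tissue. The mutant interzone array thus had the highest of the 6 levels, and the control interzone array lay close to the lowest. Lss, which closes the ring to lanosterol, was at 1.54 against -0.83 (5.16-fold higher, 3 probes from 2.37 to 4.35). Msmo1, which removes methyl groups, was at 0.91 against -2.18 (8.55-fold higher, 1 probe). Nsdhl, its X-linked partner in that step, was at 1.54 against -0.89 (5.41-fold higher, 4 probes from 2.44 to 6.28). These 3 genes were brighter in control growth plate than in the mutant interzone, at 2.02, 1.68 and 2.11. Ebp, an X-linked sterol isomerase gene, was 3.03-fold higher (1 probe). Hsd17b7, the ketoreductase of the same complex, was 4.95-fold higher, with a second probe at 3.82. Dhcr7, the last reductase, was at -0.76 and -0.86, the 1 gene of this stretch within 2-fold. Cyp51, the lanosterol demethylase, was 2.48-fold higher at its brightest probe, and another of its probes went the other way by -4.16.

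A regulator and a carrier of sterols were higher as well. Srebf2 was at 2.36 in the mutant and 1.09 in the control (2.42-fold higher, 4 probes from -0.15 to 1.64, and 1.80-fold as their mean). Stard4, a sterol carrier, was 6.04-fold higher at -2.99 against -5.58. Insig1, a sterol-sensing retention factor, was at 0.41 and 0.24, with its other probe 2.16 higher. Among the 16 genes of the list with at least 2 measured probes, 10 had all probes on 1 side, and 9 of those had every probe higher.

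**Figure D2:**
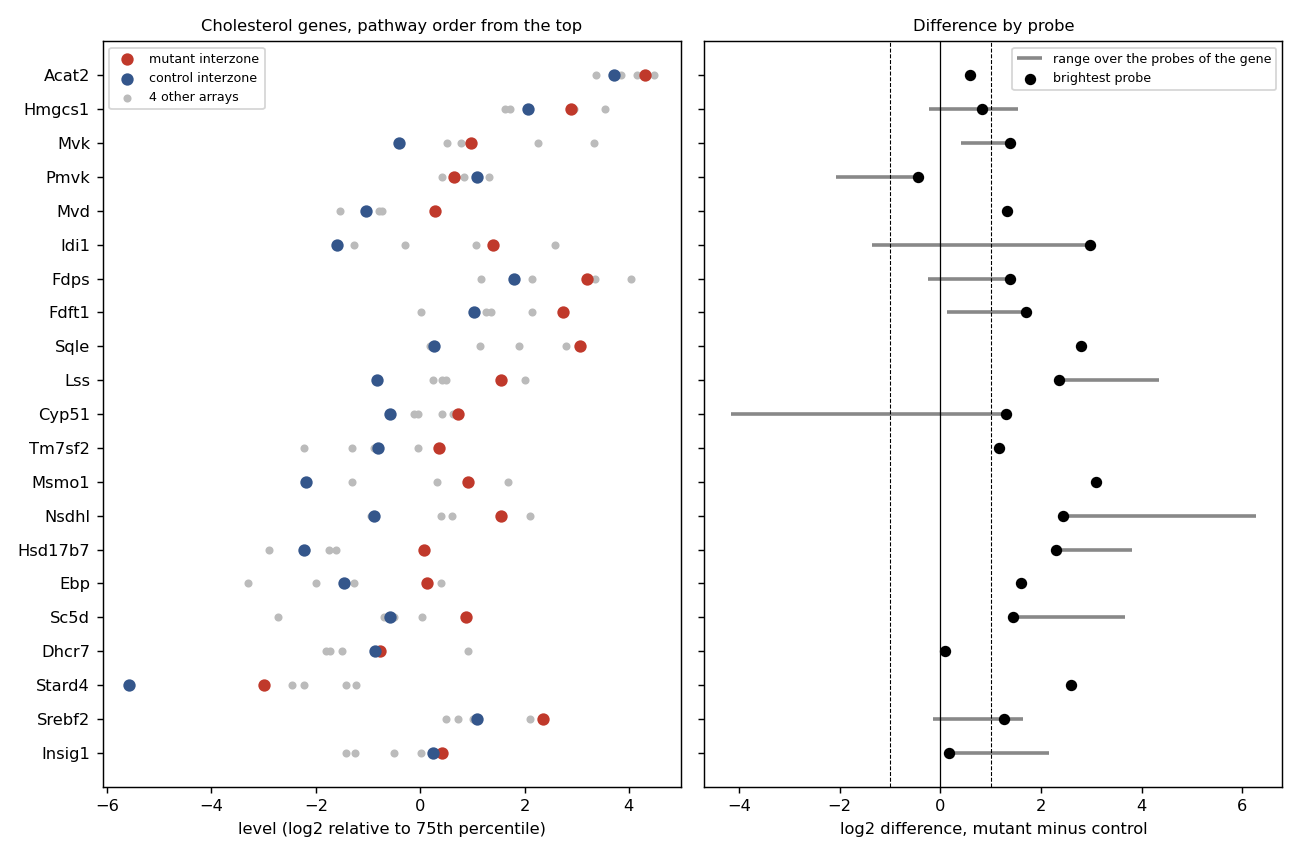
Left, levels (log2) of 21 of the cholesterol genes, in pathway order from the top with regulators last, on the mutant interzone array (red), the control interzone array (blue) and the 4 other arrays (grey). Right, mutant minus control log2 difference of the brightest probe (black) and the range over the gene's probes (grey), with dashed lines at 2-fold; Nsdhl spans 2.44 to 6.28 and Cyp51 reaches -4.16.

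Fewer of the cholesterol genes were past 2-fold higher in the other tissues. In growth plate 3 of 24 were higher and 8 lower, where 22.3% and 32.1% of all genes were higher and lower, and the list median minus that of all genes was -0.35. In interdigital tissue 3 were higher and 0 lower, where 10.2% and 15.8% of all genes were, and the list median was 0.66 above. The difference between tissues was not tested. The summed epidermis signal was 194 in mutant and 11.9 in control interdigital tissue, and 244 in mutant and 114 in control growth plate. Its part in the cholesterol values was not tested.

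Dividing cells switch on a set of mitotic genes late in the cell cycle, through promoters that often hold a CCAAT site and a cell cycle homology region, TTTGAA. These genes were lower on the mutant interzone array. Among 47 measured mitosis and spindle genes, 23 differed by 2-fold or more toward lower and 4 toward higher, with a median of -0.92. The median stayed 0.63 to 1.19 below that of all genes in every setting. The counts ranged over settings from 13 to 23 lower and from 0 to 8 higher, and 1 setting kept only 24 of the genes. Both motifs were in the 250 bases before the start of 13 of the 38 mitosis genes with a promoter entry (34.2%). That share was 7.34% of all genes and 6.36% of the measured genes. TTTGAA (or TTCAAA on the other strand), with or without CCAAT, was in 14 (36.8%, against 18.3% of all genes and 14.75% of the measured genes). The 3 shown had the largest negative differences among genes holding both, in GRCm38.p6, with both motifs in capitals.
Ube2c, chr2:164769831-164769915, plus strand: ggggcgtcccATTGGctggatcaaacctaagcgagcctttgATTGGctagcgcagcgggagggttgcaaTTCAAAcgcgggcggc
Cdc20, chr4:118437344-118437406, minus strand: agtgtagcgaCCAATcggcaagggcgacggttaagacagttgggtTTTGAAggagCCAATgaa
Cdk1, chr10:69352913-69353002, minus strand: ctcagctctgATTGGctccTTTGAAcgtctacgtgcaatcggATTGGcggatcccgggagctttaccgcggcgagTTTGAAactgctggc

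Ube2c, which tags mitotic proteins for destruction with the anaphase complex, was at -0.71 in the mutant and 2.15 in the control interzone (7.25-fold lower). Its level was 1.37 in mutant and 0.05 in control growth plate, and 0.81 in mutant and 1.62 in control interdigital tissue, so the mutant interzone array had the lowest of the 6. Kif20a and Kif23, kinesins of the dividing cell's midzone, were 6.495-fold and 4.48-fold lower, with their other probes at -1.99 and -1.84. Pttg1, securin, was at -6.28 and -0.58 (52.0-fold lower, and 2.38-fold in the setting with the smallest fold). Dlgap5, a spindle protein gene, was 19.5-fold lower with both probes past 2-fold (2.83-fold with normexp). Bub1 and Aurka, checkpoint and spindle kinase genes, were 8.62-fold and 5.79-fold lower (2.19-fold and 2.14-fold with normexp). Incenp, a partner of the Aurora B kinase, was 9.69-fold lower. Mki67, the gene of the common proliferation marker Ki-67, was at 1.30 and 2.32 (2.03-fold lower, 2 probes from -1.16 to -1.02). Cdk1, the mitotic kinase gene, was 3.14-fold lower at its brightest probe, while its other probe was 2.08 higher, and Kif11 had the same split (-1.10 and 1.11). The 4 higher genes were Foxm1, a factor that drives mitotic genes (5.64-fold higher), Kif18a, Spc25, and Anln, whose 2 probes disagreed.

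Among the 43 of these genes detected on all 6 arrays, the mutant interzone array had the lowest level of the 6 for 27 genes (62.8%), against 17.7% of all genes, and the control interzone array had the highest for 6 (13.95%, against 18.3%). Of 43 DNA replication genes, 7 were higher and 13 lower, and their median of -0.12 lay at that of all genes, but 0.55 below it with normexp. The mutant interzone array had the lowest of the 6 levels for 11 of the 42 detected on all arrays (26.2%). The difference between the replication and mitosis lists was not tested. Tk1, thymidine kinase, was 5.51-fold lower and the helicase partner gene Gins1 18.4-fold lower (1.63-fold with normexp), while Pold1, a polymerase subunit gene, was 4.43-fold higher with both probes past 2-fold, and Cdc6, which loads the replicative helicase, 4.28-fold higher. In growth plate 15 of 43 mitosis genes were higher and 8 lower, where 22.3% and 32.1% of all genes were. In interdigital tissue 0 of 47 were higher and 5 lower, where 10.2% and 15.8% of all genes were. The mitosis median lay 0.46 above that of all genes in growth plate and 0.006 above it in interdigital tissue.

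**Figure D3:**
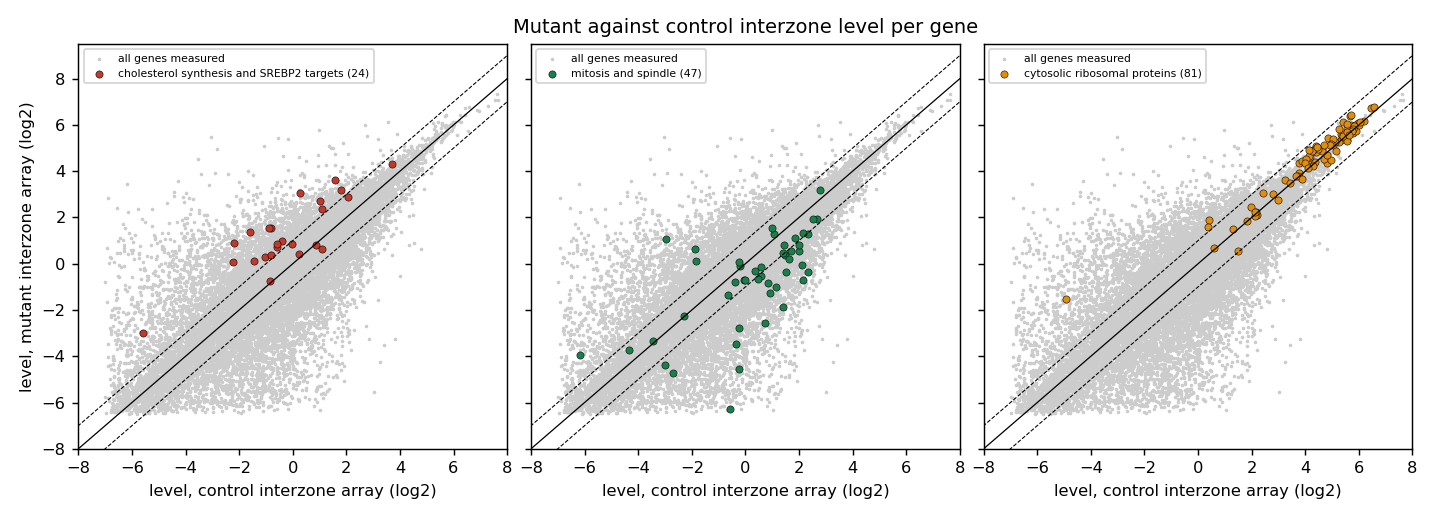
Level (log2) of each of 16675 genes on the mutant interzone array (vertical) against the control interzone array (horizontal), with lines at equality and at 2-fold. Coloured points are 24 cholesterol genes, 47 mitosis genes and 81 cytosolic ribosomal protein genes, of which 17, 4 and 3 were at least 2-fold higher and 0, 23 and 0 lower.

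Hedgehog signalling passes from a secreted ligand, released by Dispatched, through receptors and co-receptors to the GLI factors, and much of it runs in the primary cilium. Of 17 pathway genes measured, 9 were lower and 2 higher, with a median of -1.15, and the median lay 0.63 to 1.11 below that of all genes in every setting. Gas1, a co-receptor gene, was at 1.53 in the mutant and 3.84 in the control (4.96-fold lower, 1 probe). Disp1, the Dispatched gene, was 3.87-fold lower and Boc, another co-receptor gene, 2.23-fold lower, each with both probes past 2-fold. Gli1, itself a target of the pathway, was at -0.87 and 0.50 (2.60-fold lower). Gli2 was 3.70-fold lower at its brightest probe, with its other probe 1.05 higher. Smo, the signal transducer, was at 2.998 and 3.20, with 3 probes from -1.47 to -0.20.

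Genes of the cilium's transport machinery were mixed but leaned lower. Of 29 intraflagellar transport and BBSome genes, 12 were lower and 3 higher (median -0.73, and 0.60 to 0.90 below all genes in every setting). Bbs10, a chaperonin-like BBSome assembly gene, was 24.6-fold lower with its other probe at -5.29 (3.06-fold lower with normexp). Ift80 was 28.4-fold lower, Dync2li1, a motor subunit gene, 23.8-fold lower and Ift88 4.10-fold lower, these 3 with 1 probe each. Kif3b, the motor subunit of the outward train, was 5.07-fold lower on both probes (1.54-fold with normexp). Bbs5 and Ift172 were higher at their brightest probe, and each had another probe lower. Of the 15 genes with several probes, 7 had all of them on 1 side.

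Elastic fibres and cross-linked collagen give connective tissue its stretch and strength, and in both groups of matrix genes more members were at least 2-fold lower than higher. Of 21 elastic fibre and microfibril genes, 9 were lower and 0 higher (median -0.82), and the median lay 0.69 to 1.42 below that of all genes in every setting. Eln, elastin, was at -0.52 in the mutant and 4.003 in the control (23.1-fold lower). On the other arrays Eln was at -0.87 in mutant and 3.24 in control growth plate, and at 3.17 in mutant and 4.27 in control interdigital tissue, so it was lower on the mutant array of each pair. Mfap4 was at 0.65 and 4.80 (17.7-fold lower). Emilin1, a surface protein of the fibre, was 2.80-fold lower, Efemp2, which assembles it, 2.45-fold lower, and Ltbp3, which holds latent TGF-beta in the matrix, 2.32-fold lower with both probes past 2-fold. Fbln5 was 9.68-fold lower at its brightest probe and 1.09 higher at the other. The list holds Mfap1a, which encodes a splicing protein and was 2.82-fold lower. The control interzone array had the highest level of the 6 for 10 of 21 of these genes (47.6%, against 18.3% of all genes).

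Of 30 collagen folding, cross-linking and processing genes, 13 were lower and 2 higher (median -0.78, and 0.51 to 1.14 below all genes). Lox and Loxl1, the lysyl oxidases that cross-link collagen and elastin, were 5.97-fold and 4.05-fold lower. Lox was at -0.40 and 2.18 and Loxl1 at 0.53 and 2.55. Plod2, a lysyl hydroxylase, was 4.35-fold lower and Crtap, a cartilage-associated partner of prolyl hydroxylation, 4.84-fold lower. P4ha1, the collagen prolyl hydroxylase, was 2.10-fold lower with both probes past 2-fold. Most of these have 1 probe, and of the 12 with several, 4 had all on 1 side. Of 41 chondroitin and heparan sulfate synthesis genes, 14 were lower and 3 higher (median -0.49). Sulf1, which trims heparan sulfate outside the cell, was at 0.36 and 3.71 (10.2-fold lower), its relative Sulf2 was 2.37-fold lower on both probes, and Ext1, the heparan sulfate polymerase, was 6.25-fold lower. Ndst2, a sulfotransferase of the same chain, was 9.02-fold higher.

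Several families with members known from surface epithelia had more genes higher than lower, beside the epidermis marker sums given above. Cornified envelope and keratinocyte genes were among the largest single differences. Lor, loricrin, was at 3.10 in the mutant and -4.42 in the control (184-fold higher), Sprr1a 188-fold and Zfp750, a keratinocyte differentiation factor, 195-fold. Ppl, periplakin, was 114-fold higher at its brightest probe and 130-fold at its other. Spint1, an epithelial protease inhibitor gene, Prom2, and Liph, a lipase gene of the hair follicle, were higher on both probes, the smaller of the 2 differences being 32.4-fold, 29.7-fold and 73.6-fold. Mal, a lipid raft protein gene undetected on the control array, was at least 1041-fold higher, a bound not rerun with normexp.

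Of 18 measured clade B serpins, the intracellular protease inhibitors, 8 were higher and 6 lower (median 0.69). The higher ones included Serpinb12 (141-fold), Serpinb11 (63.4-fold), Serpinb7 (27.0-fold), Serpinb8 (21.9-fold, and 68.9-fold at its second probe) and Serpinb5, maspin (9.94-fold). The lower ones included Serpinb1c, 5.66-fold. Of 14 S100 calcium-binding protein genes, 6 were higher and 1 lower (median 0.80, and 0.81 to 1.08 above all genes). S100a14 was at 5.01 and 1.44 (11.9-fold higher) and S100a16 at 2.94 and 0.69, while S100a1 was at -1.56 and 3.17 (26.5-fold lower). Gap junction and water channel genes (8 of 27 higher, 3 lower, median 0.40) included the skin connexin gene Gjb6, 10.6-fold higher with its other probe 5.29 higher on the log2 scale, the glycerol channel gene Aqp3, 7.13-fold higher, and the connexin gene Gjc1, 9.77-fold lower on both probes.

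Of 18 GATA, TFAP2, GRHL and p63 family factors, 8 were higher and 2 lower (median 0.76, and 0.74 to 1.04 above all genes). Gata3 was at 0.27 and -5.27 (46.5-fold higher), Grhl1, a barrier factor, was 7.37-fold higher on both probes, and Tfap2c was 6.29-fold higher, while Tfap2b was 11.2-fold lower on both probes. Trp63, the p63 gene that defines stratified epithelium, was at -0.78 and -0.47 in the same pair. Of 22 Kruppel-like and SP factors, 7 were higher and 2 lower (median 0.35). Klf5 was 6.51-fold, Sp6 10.1-fold and Klf4 2.21-fold higher, the first pair on both probes.

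Forkhead factors ran the other way. Of 37 measured, 15 were lower and 3 higher, with a median of -0.78, but with normexp background correction the median came to 0.0038 above that of all genes. Foxo1, a factor held out of the nucleus by insulin and growth factor signals, was at -4.91 in the mutant and 1.64 in the control (93.7-fold lower), with its second probe at -5.17. On the other arrays Foxo1 was at -3.28 in mutant and 0.17 in control growth plate, and at -0.72 in mutant and -0.32 in control interdigital tissue. Foxp1 was 3.87-fold lower on both probes, Foxp4 3.62-fold, Foxc1, a mesenchyme factor, 18.3-fold and Foxp2 41.2-fold lower. In the setting with the smallest fold, Foxc1 was 3.20-fold and Foxp2 2.68-fold lower. Foxd1 was at -1.502 and -6.55 (33.0-fold higher).

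Hox genes, which give limb segments their identity, leaned different ways by position in the cluster, a split drawn after the values were seen. Of 20 genes of paralog groups 1 to 8, 9 were higher and 4 lower (median 0.35), and of 14 genes of groups 9 to 13, which pattern the distal limb, 3 were higher and 5 lower (median -0.55). Hoxa5 was at 1.70 in the mutant and -2.69 in the control (20.9-fold higher) and Hoxb7 at 1.12 and -3.38 (22.6-fold higher), each with 1 probe. Hoxd8, of group 8, was at -1.54 in the control and not well above background in the mutant (at least 31.3-fold lower), and is not among the 20. Hoxa4 was 21.2-fold higher, and 0.85 on its other probe. Hoxd13, the gene of the most distal segment, was at 2.65 and 3.75 (2.14-fold lower, with both probes past 2-fold), and Hoxd11 at -2.90 and -0.21 (6.47-fold lower). Hoxc10 and Hoxb9 were 3.96-fold and 4.89-fold higher at their brightest probes, with their other probes at -2.10 and -0.02. The 3 higher genes of groups 9 to 13 were Hoxb9, Hoxc9 and Hoxc10, and the 5 lower were Hoxa10, Hoxc13, Hoxd9, Hoxd11 and Hoxd13. Whether cluster or position went with the difference was not tested. In interdigital tissue 7 of 21 genes of groups 1 to 8 were higher and 3 lower, and in growth plate 6 of 19 were higher and 7 lower. Of 14 genes of groups 9 to 13, 5 were higher and 2 lower in interdigital tissue. In growth plate 5 of 14 were higher and 3 lower. Of all genes, 10.2% were higher and 15.8% lower in interdigital tissue, and 22.3% and 32.1% in growth plate.

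**Figure D4:**
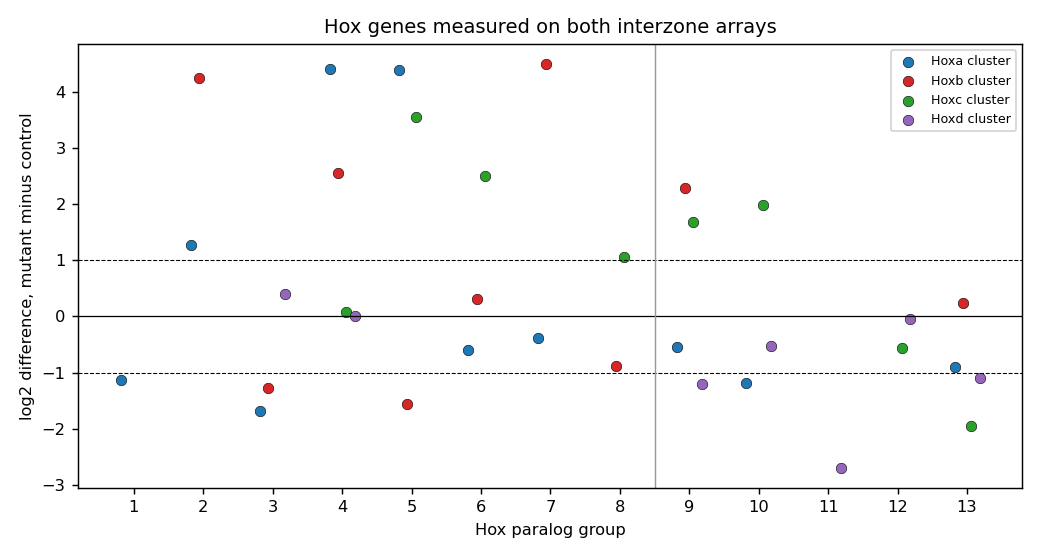
Mutant minus control log2 difference of the 34 Hox genes measured on both interzone arrays by paralog group, coloured by cluster, with dashed lines at 2-fold and a grey line between groups 8 and 9. Hoxb7 stands at 4.50 and Hoxd11 at -2.69.

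Lists of chromatin regulators differed from each other. Of 15 histone lysine demethylases measured, 6 were lower and 2 higher (median -0.76), among the lower ones Kdm1a (3.55-fold), Kdm6b (3.80-fold) and the X-linked pair described above. Of 23 SWI/SNF remodelling subunits, 6 were lower and 1 higher (median -0.66), with Smarca1 3.40-fold lower on both probes. The 26.1% lower is close to the 23.1% of all genes, and the median's offset from all genes was -0.53, and -0.30 as the mean over a gene's probes. Of 29 Polycomb subunits, 5 were higher and 3 lower (median 0.07).

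Among lists of core machinery, the cytosolic ribosomal proteins and the CCT chaperonin had few genes past 2-fold. Both lists are bright, with median control levels of 4.71 and 2.66. Among the brightest 3335 genes only 10.1% were higher and 11.8% lower. Of 81 cytosolic ribosomal protein genes, 3 were higher and 0 lower, with a median of 0.18 whose offset from all genes turned negative with normexp. Rpl14 was the exception in size, at -1.52 and -4.94 (10.7-fold higher, 1 probe). All 8 subunits of the CCT chaperonin lay within 2-fold. Proteasome subunits had 6 of 39 higher and 6 lower (median -0.09), complex I subunits 6 of 37 higher and 6 lower (median 0.10), and mitochondrial ribosomal proteins 14 of 76 higher and 17 lower (median -0.15), shares nearer to those of all genes.

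**Figure D5:**
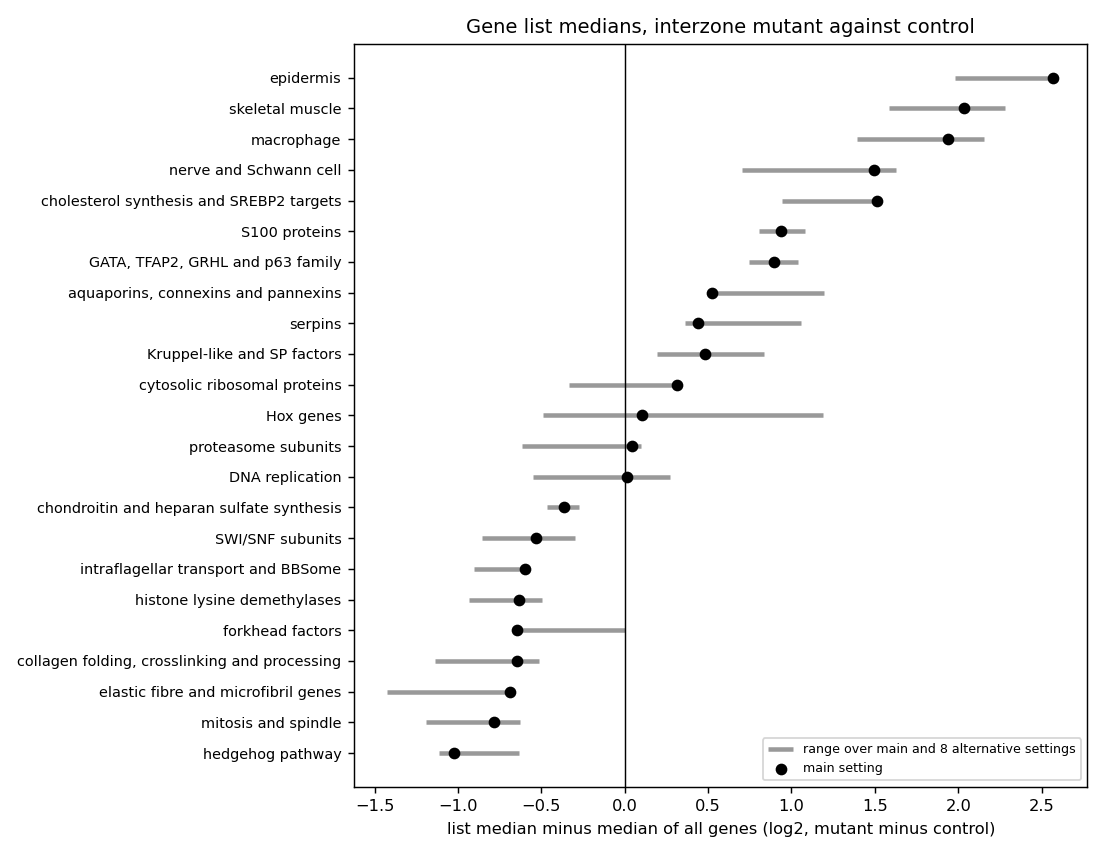
Median log2 difference (mutant minus control) of each list minus that of all genes, in the main setting (black) and its range over that setting and 8 alternatives (grey). The cholesterol list spans 0.95 to 1.51 and the mitosis list -1.19 to -0.63, while the ribosomal, Hox, proteasome, DNA replication and forkhead ranges cross 0.

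Single genes outside these lists also showed large differences, some on several probes and others on 1. Ebf1, a factor of fat and blood lineages, was at 1.76 in the mutant and -4.62 in the control (83.2-fold higher, 64.2-fold at its other probe). Dpp4, a cell surface peptidase gene, was 120-fold higher, with 3 probes from 5.10 to 6.91. Adcy2, an adenylate cyclase gene, was 42.3-fold lower with its other probe at -4.89 (3.21-fold lower with normexp). Lhx9, a limb bud factor gene, was 18.4-fold lower with its other probe at -3.85 (2.47-fold in the setting with the smallest fold). Gnaz, a G protein gene, was 21.6-fold lower (1.76-fold with normexp), and Katnal2 42.5-fold lower. Cilp, a cartilage intermediate layer protein gene, was at -5.86 and 0.81 (102-fold lower, 1 probe), Fgf12 was 103-fold lower at its brightest probe and 1.03-fold lower at the other, and Snupn was 86.0-fold lower with 1 probe. Kctd13 and Aig1 were 195-fold and 190-fold higher, each with 1 probe. Fst, follistatin, an activin-binding protein gene, and Alb, albumin, were higher by at least 237-fold and by at least 230-fold, with the control signal of both at background. Mgat5, a glycan-branching enzyme gene, was lower by at least 286-fold.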

How the data were processed

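Deposited scanner files give spot intensity on 1-colour Agilent mouse arrays, background-subtracted by Agilent Feature Extraction 9.5.1.1, per the file headers. The value table deposited by the authors is a linear ratio, the processed signal divided by the array's median, as found by setting it against the scanner values. RNA was amplified with a commercial procedure and 250 ng of product were labelled with Cy3, per the labels' protocols.

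Control and outlier spots were left out, spots of a probe averaged, and log2 signals scaled to each array's 75th percentile. RefSeq names (GRCm38.p6) matched 22935 probes by accession, 6653 by symbol and 3103 by older symbol, and 8444 had none. A gene was read from its brightest probe, by the mean level of all 6 arrays. Genes well above background on both interzone arrays were counted at 2-fold. A gene detected on 1 array has only a bound, against the lowest signal well above background or its own signal, whichever was higher. Bounds of single genes were not recomputed in the alternative settings. No test was possible with 1 array per group. The comparisons in growth plate and interdigital tissue used the same steps.

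There were 133 gene lists. Values of some members are not reported here. The members and lists were chosen with earlier results of these data known, and the splits of the cholesterol, Hox, serpin and collagen lists were made after seeing the values. Some named genes came from the 15 with the largest difference in each direction. For those the brighter array was at or above 0 and all probes went 1 way. Others came from the 10 in each direction with the largest smallest-probe difference, or were up to 4 in each direction per list with its brightest members. The rule for bounds was the 5 brightest in each direction. Fst, Alb, Hoxd8 and the Y-linked genes given as bounds were named from outside those 5. Genes that earlier descriptions of these data had valued could be passed over, and genes named for a disagreement between probes or for being near 0 were chosen after their values were seen. Promoter windows came from the RefSeq promoter table. Scripts, tested on simulated data, ran in Python 3.11.15 and R 4.3.3 with limma 3.58.1. Alternatives were normexp correction, quantile scaling, a percentile over probes detected on all arrays, loess of the pair, the deposited table, the mean over a gene's probes, other filters and 4-fold.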

Additional observations from a re-analysis of the deposited data

Results flagged for a closer look

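Lists whose medians, relative to all genes, lay at least 0.5 on opposite sides in 2 tissues were noted, each with 1 array a side, so the difference between tissues was not tested. The stretch from squalene to cholesterol stood at 2.16 in the interzone and -0.92 in growth plate. The histone lysine demethylases stood at -0.63 in the interzone and 1.58 in growth plate. The SWI/SNF subunits stood at -0.53 in the interzone and 0.73 in growth plate. The intraflagellar transport and BBSome genes stood at -0.60 in the interzone and 0.53 in interdigital tissue. On the growth plate control array 72.3% of spots were detected above background, fewer than on the other 5, and its part in these differences was not tested.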

How the results depend on the processing

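Normexp background correction gave 5342 higher and 2130 lower genes at 2-fold, and the higher genes made up 71.5% of both, against 43.2% in the main setting. The deposited table brought that share to 54.3%. Over all genes the median was -0.13 in the main setting, 0.30 with normexp and 0.12 with the deposited table, and list medians are given relative to it for that reason. Genes with a mean level at or above 0 gave 932 higher and 1041 lower of 6567, and a 4-fold threshold gave 1310 and 1732. The other 5 settings kept both counts within 1.5 times. Of 22 lists given in the report with a median at least 0.5 from that of all genes, 16 kept that distance and direction in all settings tried. The deposited table and the percentile over probes detected on all arrays could not change it, as they shift each array by a constant. The forkhead median turned to 0.0038 with normexp, and the endothelium median to -0.99 over the 5 endothelium genes with a mean level at or above 0. Among lists not described, the keratan sulfate and sulfotransferase median turned to 0.0013 with normexp, and that of the PDGF, VEGF, CSF1 and KIT list to -0.03 over genes at or above 0. As the mean over a gene's probes, Cdk1 turned to 0.22, Kif11 to 0.0085, Cyp51 to -1.21, Ddx3x to -0.91, Hoxc10 to -0.0567 and Ift172 to -1.24, because their probes disagreed. Of the named genes past 2-fold, 6 are these, 99 stayed past 2-fold in the same direction in all 6 settings run on single genes, and 16 more kept their direction but came under 2-fold in at least 1. Those were Gins1, Gnaz, Kdm6a, Kif3b and Klf4 with normexp, Boc, Hoxd13, Ltbp3, Mki67, P4ha1 and Sulf2 with the deposited table, Mki67 also with loess, and Fdft1, Gli2, Idi1, Mvk and Srebf2 as the mean over probes. No paired analysis was possible because each group has 1 array. Signal over background limits dim genes, and 1238 genes were detected on the control interzone array only.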
